A study of Mus musculus with 8 samples.

Results

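The genes described here encode the subunits of the mitochondrial respiratory chain and ATP synthase, together with the assembly factors whose symbols begin alike. They were chosen by symbol alone: every probe set with exactly 1 annotated gene whose symbol starts with Nduf, with Sdh followed by a to d, with Uqcr, with Cox followed by 4 to 8, or with Atp5. This gave 185 probe sets for 94 genes, of the 18193 genes with such a probe set on the array. By symbol, 36 genes belonged to complex I, 4 to complex II, 8 to complex III, 17 to complex IV and 17 to complex V, and 12 were assembly factors named Ndufaf or Sdhaf. After a filter on dim signals 90 of the 94 were tested, namely 35, 4, 8, 15, 17 and 11 in the same order. Another 10 probe sets that match a member together with a second gene were not used, so a few subunits such as Ndufs6 and Ndufa11 are not described.

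The study compared lymphatic endothelial cells (LEC) with blood vascular endothelial cells (BEC) of the normal mouse colon. Both cell types were sorted from the same 4 healthy C57BL/6J mice, 8 weeks old, 3 female and 1 male (mouse 4), so that each mouse gave 1 LEC and 1 BEC array. The sort used antibodies to CD31, podoplanin and CD45.2, no source used here gives the gates, and the pairs were selected for good RNA and cDNA. The labels give no allele or treatment for any animal, and they set the groups apart by cell type alone.

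The respiratory chain lies in the inner mitochondrial membrane. Complexes I and II pass electrons from NADH and succinate to ubiquinone, complex III hands them to cytochrome c and complex IV to oxygen, and complexes I, III and IV pump protons whose return through complex V, the ATP synthase, makes ATP. Apart from a small set encoded in mitochondrial DNA, the subunits are nuclear genes, and endothelial cells are known for drawing much of their ATP from glycolysis.

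Promoters of the nuclear subunit genes are known for sites of NRF1 and of ETS factors such as GABPA, so their start regions are shown first. A link between these motifs and the signals on the arrays was not tested. RefSeq (GRCm38.p6) listed a promoter of 250 bases before to 50 bases after the start for 78 of the 94 genes. The letters GCGCANGCGC (NRF1) stood on either strand in promoters of 19 of the 78 genes (24.4%), against 5.19% of all 27025 genes of the RefSeq table. The ETS core CCGGAAG was found for 22 (28.2%, against 9.93%), the YY1 core AAGATGG for 11 (14.1%, against 7.28%) and the TATA box letters TATAAA for 9 (11.5%, against 15.7%). At least 1 of the first 3 motifs was held by 45 of the 78 (57.7%), against 20.0% of all genes. No motif contains another, the shares take no account of base composition, and a match describes letters and not a bound site. One subunit of each complex is shown, with the pair Cox6b1 and Cox6b2, the widely expressed and the testis-enriched form of the same complex IV subunit, because the largest difference of the whole group was seen at Cox6b2. The stretches lie upstream of the start, on the minus strand, at chr2:36049339-36049408 (Ndufa8), chr13:74350241-74350378 (Sdha), chr10:80406841-80406927 (Uqcr11), chr5:115348959-115349160 (Cox6a1), chr7:30626115-30626182 (Cox6b1), chr7:4753095-4753174 (Cox6b2) and chr11:115419920-115420100 (Atp5h). They are written 5′ to 3′ in the direction of the gene, with NRF1 and ETS letters in capitals.
Ndufa8: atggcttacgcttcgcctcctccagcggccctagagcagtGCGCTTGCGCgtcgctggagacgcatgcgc
Sdha: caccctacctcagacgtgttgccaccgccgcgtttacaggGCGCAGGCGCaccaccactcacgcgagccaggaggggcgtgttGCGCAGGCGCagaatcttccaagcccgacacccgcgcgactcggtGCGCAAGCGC
Uqcr11: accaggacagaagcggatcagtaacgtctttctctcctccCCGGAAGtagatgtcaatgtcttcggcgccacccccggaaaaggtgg
Cox6a1: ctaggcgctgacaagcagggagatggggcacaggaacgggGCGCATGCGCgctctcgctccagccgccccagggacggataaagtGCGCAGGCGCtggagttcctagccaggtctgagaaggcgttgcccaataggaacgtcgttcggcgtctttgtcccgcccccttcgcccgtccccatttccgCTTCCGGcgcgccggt
Atp5h: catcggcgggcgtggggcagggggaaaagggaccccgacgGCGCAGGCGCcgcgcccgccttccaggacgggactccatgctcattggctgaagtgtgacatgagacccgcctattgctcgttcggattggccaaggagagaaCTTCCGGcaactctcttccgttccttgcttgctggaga
Cox6b1: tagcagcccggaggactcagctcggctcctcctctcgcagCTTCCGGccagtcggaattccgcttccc
Cox6b2: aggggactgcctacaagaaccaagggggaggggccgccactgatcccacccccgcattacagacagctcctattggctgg
Sdha holds the NRF1 letters 3 times and Cox6a1 holds them 2 times, and Ndufa8 and Atp5h hold 1 copy each. The ETS core stands in Uqcr11, Cox6a1, Atp5h and Cox6b1, whereas none of the 4 motifs was found in the Cox6b2 window.

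The values are log2 signals of 1-colour expression arrays, with 1 probe set taken per gene. A background level was taken on each array from control probes for bacterial transcripts (3.43 to 4.88 on the log2 scale), and 73 of the 90 tested genes stood above it on all 8 arrays. The sort labels matched the defining genes: all 6 tested lymphatic markers were called higher and 6 of the 7 blood endothelial markers lower in LEC, with Prox1, the lymphatic fate factor, at 11.46 ± 0.52 in LEC and 3.75 ± 0.62 in BEC (SD, n = 4). Of 14 markers of colon epithelium 0 were called between the cell types, but their signal differed widely between arrays. Their summed signal, as log2, was 8.77, 10.81, 13.34 and 9.99 on the LEC arrays of mice 1 to 4 and 9.37, 9.51, 14.55 and 12.65 on the BEC arrays. Of these markers 7, 7, 13 and 8 were above background on the LEC arrays and 8, 11, 14 and 14 on the BEC arrays. LEC 3, BEC 3 and BEC 4 thus carried the brightest epithelial signal. Fibroblast markers were bright on LEC 2 and LEC 4 (13.22 and 12.43, against 7.85 to 9.85 on the other 6 arrays). Their summed signal on LEC 1 and LEC 3 (8.75 and 9.85) was also above that of every BEC array (7.85 to 8.60). Of 7 tested fibroblast markers limma called 1, which was higher in LEC, and 5 had an unadjusted p under 0.05, all higher. Of all genes 4.07% were called and 14.4% had such a p. The part of fibroblast RNA in differences between LEC and BEC was not tested.

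No respiratory chain gene was called different between LEC and BEC. At an adjusted p under 0.05 (limma, adjusted over all 13259 genes tested), 0 of the 90 genes were higher in LEC (1.76% of all tested genes were, 234 in number) and 0 lower (2.31%, 306 in number), where 4.07% of all tested genes were called. By an unadjusted p under 0.05 there were 4 of 90, of which 2 were higher (Cox6b2 and Ndufb6) and 2 lower (Ndufa8 and Atp5j), beside 14.4% of all genes. The smallest adjusted p was 0.0791, for Cox6b2, and the next was 0.156, for Ndufa8. When the mouse entered the model as a replicate block, 0 members were called again (4.03% of all genes were), and the smallest adjusted p was 0.122. In sorted bulk cells, a lower signal from fewer cells of a kind cannot be told apart from a lower signal per cell.

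The differences were small beside those of the other genes on the array, and the intervals were wide. The members were also brighter, at a mean of 8.63 in LEC and 8.72 in BEC, against 6.18 and 6.12 over all tested genes. The shares below were not matched for brightness. The LEC minus BEC difference (logFC) ran from -1.59 to 3.11 over the 90 genes, with a median of -0.10, 51 genes below 0 and 39 above, whereas the median of all tested genes was 0.08. With equal array medians the 2 values were -0.37 and -0.20, so signs near 0 are relative to the deposited scale. A difference of 2-fold or more in either direction was seen at 13 of the 90 (14.4%), against 37.3% of all genes. The median standard error was 0.61, against 0.83 over all genes. The 95% interval of the difference lay within 2-fold at 9 of the 90 (10.0%), namely Ndufa1, Ndufb7, Ndufb11, Sdha, Uqcrb, Cox6c, Cox7a2l, Atp5a1 and Atp5h, and within 4-fold at 58 (64.4%). The same was true of 2.19% and 27.3% of all genes. For the other members a 2-fold difference was not excluded by this interval, which comes from the fit without a mouse term. Intervals with the mouse as a replicate block are not given here.

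**Figure D1:**
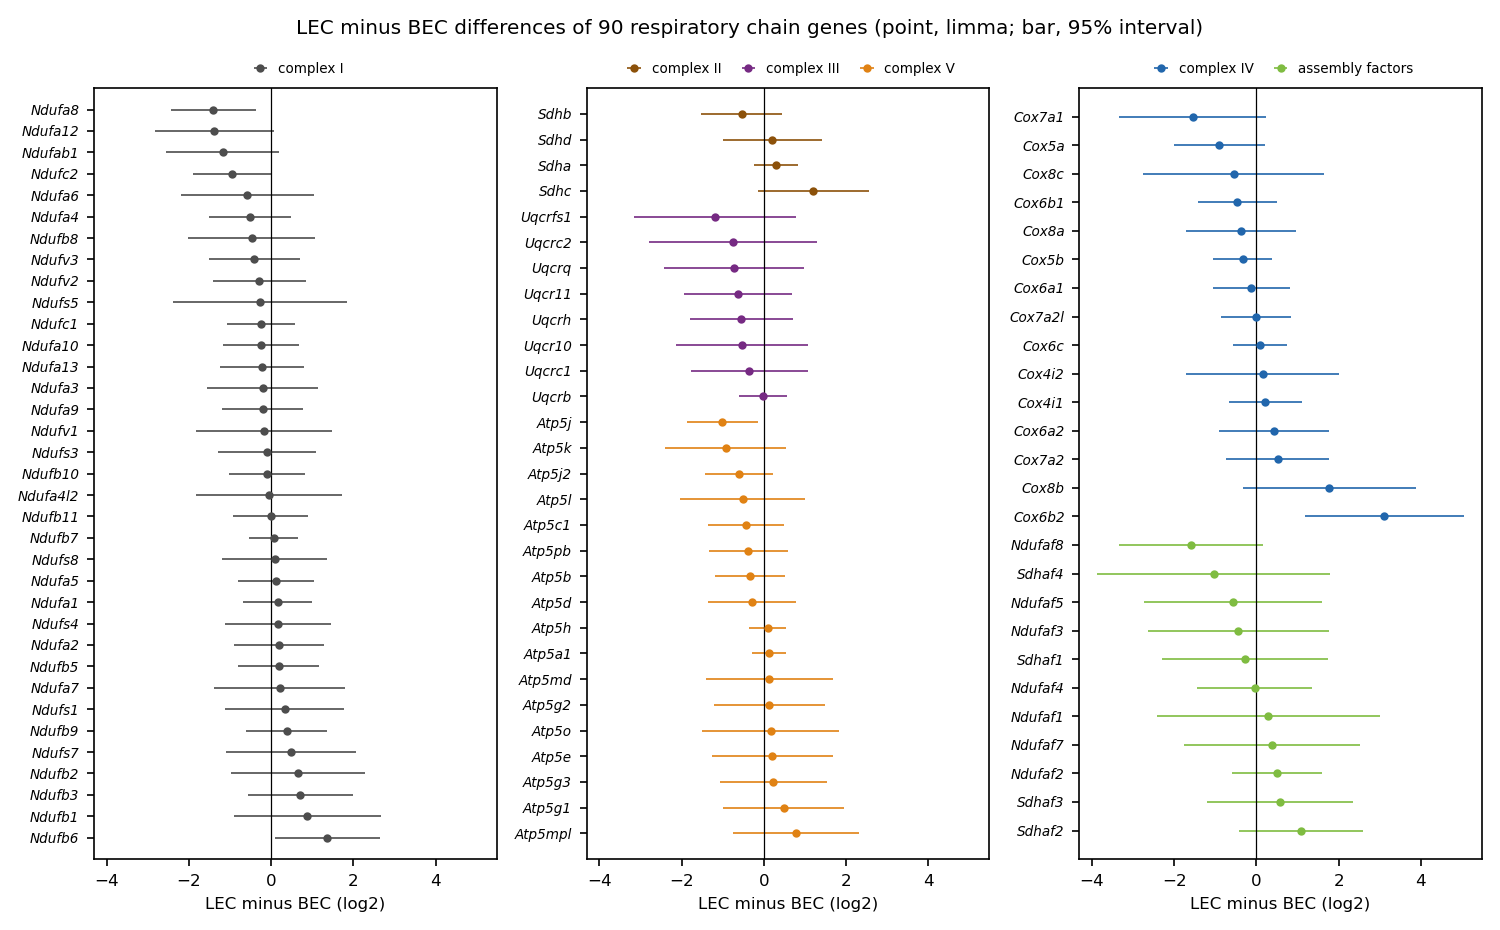
LEC minus BEC difference of each of the 90 tested genes on the log2 scale (horizontal axis), by complex; points are limma estimates and bars their 95% intervals. Most bars cross 0, and the bar of Cox6b2 lies furthest to the right, from 1.17 to 5.04.

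The signals of a gene in LEC and BEC arrays rarely separated. Every LEC array was above or every LEC array below all BEC arrays at 3 of the 90 genes, Cox6b2, Ndufa8 and Ndufc2, beside 10.4% of all genes. Within mice, LEC was lower than BEC in all 4 animals at 13 genes (14.4%, against 11.1% of all genes), of which 4 belonged to complex I, 1 to complex III, 3 to complex IV and 5 to complex V. LEC was higher in all 4 animals at 6 genes (6.67%, against 14.3% of all genes), namely Ndufb1, Sdhc, Cox4i1, Cox6b2, Cox8b and Atp5a1.

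The 13 genes with a lower LEC signal in every mouse differed in how evenly the mice shared the step. Ndufa12, an accessory subunit that joins complex I late in its assembly, read 5.93, 8.99, 9.54 and 8.67 in LEC and 9.76, 9.43, 9.68 and 9.79 in BEC (logFC -1.38 ± 0.67, adjusted p = 0.373). The BEC arrays lay close together, and LEC 1 was far below all others. Atp5c1, the central stalk subunit gamma of ATP synthase, read 9.34, 9.97, 10.89 and 10.51 in LEC and 9.71, 10.73, 11.10 and 10.92 in BEC (logFC -0.44 ± 0.43, adjusted p = 0.716). Atp5pb, subunit b of the peripheral stalk, read 8.57, 8.70, 9.29 and 8.42 in LEC and 8.59, 8.87, 9.42 and 9.59 in BEC (logFC -0.37 ± 0.44, adjusted p = 0.780). Both arrays of mouse 1 were the lowest of their cell type at Atp5c1, and both of mouse 3 the highest. At Atp5pb the LEC and BEC arrays of mice 1 to 3 read nearly alike within each mouse, and mouse 4 had the widest gap.

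Complex I, the NADH dehydrogenase, had 35 tested genes with a median logFC of -0.09, 20 below 0 and 15 above. Their mean signal averaged 8.96 ± 0.57 over the LEC arrays and 9.04 ± 0.34 over the BEC arrays (SD, n = 4). Ndufa8, an accessory subunit on the intermembrane space side, had the lowest logFC. Ndufa8 read 7.19, 8.83, 8.30 and 7.92 on the LEC arrays of mice 1 to 4 and 9.14, 9.66, 9.84 and 9.21 on the BEC arrays. The highest LEC array was thus below the lowest BEC array (logFC -1.41 ± 0.48, adjusted p = 0.156), and its single probe set carries the whole value. Ndufb6, an accessory subunit of the membrane arm, was at the other end, with 11.87, 9.14, 9.34 and 10.25 in LEC and 9.18, 8.56, 9.47 and 7.93 in BEC (logFC 1.36 ± 0.59, adjusted p = 0.307). Here the groups overlapped, LEC 1 stood far above the rest, and the other kept probe set of Ndufb6 gave a logFC of 0.14.

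Ndufc2, an accessory subunit of the membrane arm, was the remaining complex I gene whose groups did not overlap. Ndufc2 read 8.89, 10.91, 10.86 and 11.13 in LEC and 11.21, 11.39, 11.60 and 11.39 in BEC (logFC -0.95 ± 0.44, adjusted p = 0.348), and LEC 1 lay furthest below. Its other kept probe sets gave 0.09 and 0.20, so the separation was not shared within the gene. Ndufs1 and Ndufv1 are core subunits of the electron input module, Ndufs1 with iron-sulphur clusters and Ndufv1 with the site that binds NADH. Ndufs1 stood at 6.43 ± 0.98 in LEC and 6.10 ± 0.21 in BEC (SD, n = 4), with a logFC of 0.33 ± 0.67. Ndufv1 stood at 8.81 ± 1.74 in LEC and 8.98 ± 0.87 in BEC (SD, n = 4), with a logFC of -0.17 ± 0.76, and its LEC values of 6.23, 9.32, 9.99 and 9.70 were set apart by the low array of mouse 1. The interval of the difference ran from -1.12 to 1.78 for Ndufs1 and from -1.82 to 1.47 for Ndufv1, so neither a 2-fold higher nor a 2-fold lower level in LEC was excluded.

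Ndufv2, Ndufs3, Ndufs7 and Ndufs8 are the remaining core subunits of complex I among the tested members, and carry or surround the redox centres of the matrix arm. Ndufs7, which holds the last iron-sulphur cluster before ubiquinone, read 8.07, 8.66, 9.24 and 11.52 in LEC and 7.63, 8.44, 10.25 and 9.23 in BEC (logFC 0.48 ± 0.74), with the highest value on LEC 4. Ndufs8 read 7.56, 9.74, 9.62 and 10.45 in LEC and 8.47, 9.47, 9.85 and 9.26 in BEC (logFC 0.08 ± 0.59), with the lowest on LEC 1. The groups overlapped at both genes. Ndufv2 and Ndufs3 had a logFC of -0.29 ± 0.53 and -0.10 ± 0.55.

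The other accessory subunits of complex I stayed between logFC -1.38 (Ndufa12) and 0.88 (Ndufb1). Ndufab1, the mitochondrial acyl carrier protein that also serves lipoic acid synthesis, showed how far probe sets of the same gene can part. Its brightest probe set gave -1.18, and its 3 kept probe sets ranged from -1.62 to 0.78. Ndufb7, an accessory subunit of the intermembrane space side, was among the most precisely measured, at 12.67 ± 0.61 in LEC and 12.61 ± 0.21 in BEC (SD, n = 4), and its interval ran from -0.54 to 0.66. Ndufb4 was not tested: it was above background on 1 of 8 arrays.

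Complex II, the succinate dehydrogenase that is also an enzyme of the citric acid cycle, is encoded by 4 nuclear genes, and all were tested. The median logFC was 0.25, with 3 genes above 0 and 1 below. The median turned negative when arrays were scaled to a common median (-0.03) or to the hybridisation controls (-0.14). It was also negative (-0.02) when the kept probe sets of each gene were averaged. Sdha, the flavoprotein that oxidises succinate, read 12.32, 12.00, 11.82 and 11.69 in LEC and 11.57, 11.34, 11.90 and 11.84 in BEC. The groups overlapped (logFC 0.29 ± 0.25, adjusted p = 0.669), and the interval of -0.24 to 0.83 did not reach a 2-fold difference in either direction. The other probe set of Sdha gave -0.35. Sdhb, the iron-sulphur subunit, read 9.06, 8.48, 8.58 and 8.78 in LEC and 9.65, 8.44, 9.96 and 9.00 in BEC (logFC -0.54 ± 0.46, adjusted p = 0.672), with overlap again.

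The membrane anchors of complex II, Sdhc and Sdhd, hold the ubiquinone site. Sdhc read 9.79, 10.09, 10.33 and 9.46 in LEC and 6.58, 9.13, 9.93 and 9.21 in BEC. LEC was higher in each of the 4 mice, but the BEC array of mouse 1 was far below the rest (logFC 1.21 ± 0.63, adjusted p = 0.419), and without it the logFC was 0.50. The other probe set of Sdhc gave -0.45. Sdhd stood at 9.46 ± 1.14 in LEC and 9.25 ± 0.51 in BEC (SD, n = 4; 0.21 ± 0.56 for the logFC), and its highest LEC value was that of mouse 4.

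Complex III, the cytochrome bc1 complex, was the group with the lowest median, at logFC -0.59, and all 8 tested genes were below 0. None reached an unadjusted p under 0.05. The mean of the 8 genes was 6.68, 8.26, 9.39 and 8.21 on the LEC arrays of mice 1 to 4 and 8.59, 8.29, 9.29 and 8.73 on the BEC arrays. The LEC array of mouse 1 stood far below the other 7, and it was the lowest of the 8 arrays at 5 of the 8 genes. Without it the median was -0.22 and 5 of the 8 genes were below 0.

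Uqcrfs1, the Rieske iron-sulphur protein that carries electrons to cytochrome c1, had the lowest logFC of complex III among the chosen probe sets. Uqcrfs1 read 3.04, 7.39, 6.86 and 6.43 in LEC and 8.32, 6.43, 6.75 and 6.95 in BEC (logFC -1.18 ± 0.91, adjusted p = 0.634). The first LEC value was below the background of its array, and without that array the logFC was -0.22. Uqcrc1, a core subunit on the matrix side, read 6.35, 7.42, 9.36 and 7.89 in LEC and 7.99, 8.11, 8.92 and 7.41 in BEC (logFC -0.35 ± 0.66, adjusted p = 0.880). Uqcrc2, its partner core subunit, showed the same low first array, with 5.51, 11.06, 10.78 and 8.67 in LEC against 9.26, 9.36, 10.44 and 9.94 in BEC. Uqcrb, known as the ubiquinone-binding subunit, was nearest to 0 in complex III, at 11.87 ± 0.46 in LEC and 11.88 ± 0.21 in BEC (SD, n = 4), and its interval ran from -0.59 to 0.57. The other 4, Uqcrq, Uqcr11, Uqcrh and Uqcr10, lay between logFC -0.72 and -0.53. Other kept probe sets went the opposite way for Uqcrq (0.12) and for Uqcr10 (0.87 and 1.07), and that of Uqcrh gave -1.56. The common sign of complex III and the lowest place of Uqcrfs1 thus hold for the chosen probe sets.

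**Figure D2:**
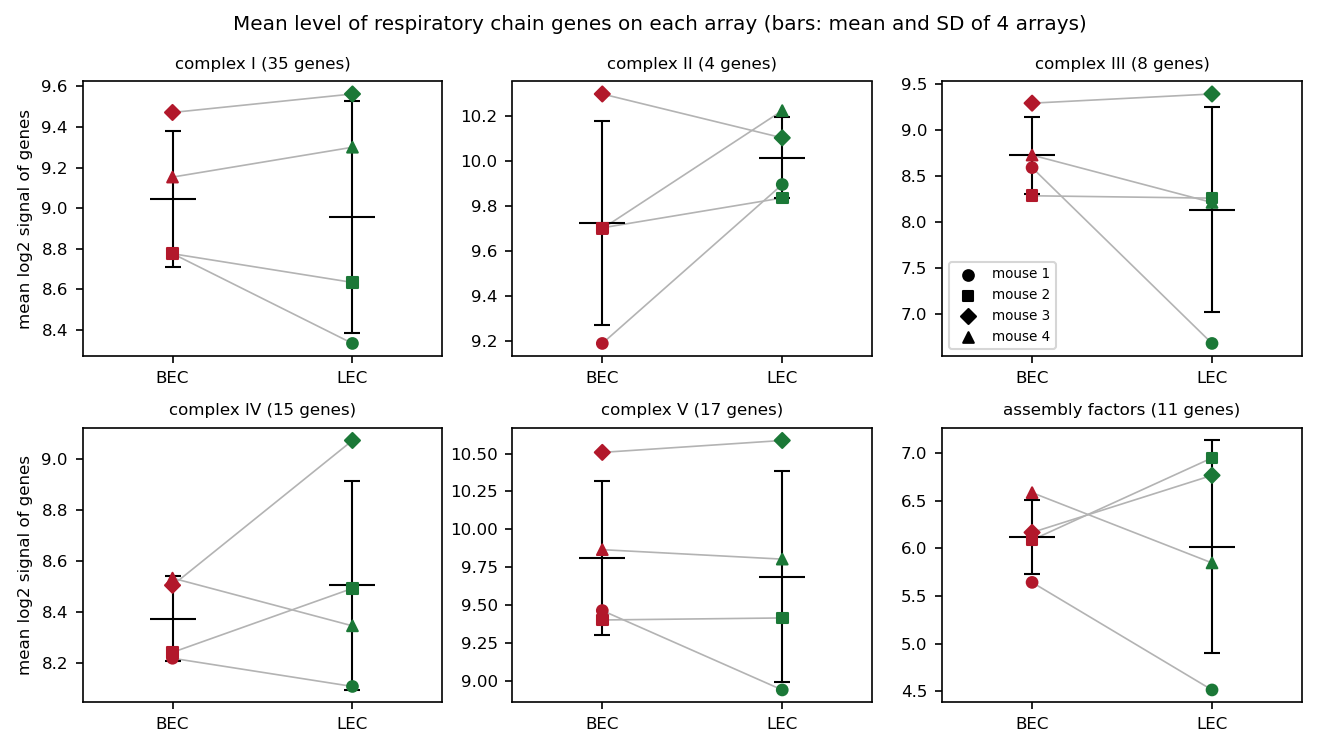
Mean log2 signal of the tested genes of each complex (vertical axis, scale differs between panels) on the BEC and LEC array of each mouse; grey lines join the arrays of a mouse, bars are the mean and SD of 4 arrays. The complex III mean of LEC 1, at 6.68, lies below the other 7 arrays, and mouse 3 is at or near the top in complexes I, III, IV and V.

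Complex IV, the cytochrome c oxidase, had 15 tested genes, a median logFC of -0.02 and means of 8.51 ± 0.41 in LEC and 8.38 ± 0.17 in BEC (SD, n = 4). Several of its subunits have a widely expressed form and a second form of heart and muscle, lung or testis. Cox6b2, the testis-enriched form of subunit VIb, had the largest difference of all 90 genes. It read 6.10, 6.35, 7.16 and 6.18 on the LEC arrays and 4.62, 3.76, 0.87 and 4.11 on the BEC arrays. All LEC arrays were above all BEC arrays, and the BEC array of mouse 3 was below background. The logFC was 3.11 ± 0.90 with a 95% interval of 1.17 to 5.04, and the adjusted p of 0.0791 missed the threshold.

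With values below background raised to the background of their array, the Cox6b2 estimate was 5.52-fold higher in LEC. Under that alternative the adjusted p (limma) was 0.0234 and the gene was called, as were 4.77% of all genes (4.07% in the main fit). The BEC values of Cox6b2 in mice 1, 2 and 4 (4.62, 3.76 and 4.11) stood beside backgrounds of 4.52, 3.43 and 3.43. Over the 22 alternatives the adjusted p ran from 0.0234 to 0.513, and the logFC from 2.02 to 3.53. Without BEC 3 the logFC was 2.28 (adjusted p = 0.161), and with both arrays of mouse 3 left out it was 2.04 (adjusted p = 0.316). The gene had 1 probe set, so no second measurement of it exists on the array. Cox6b1, its widely expressed counterpart, read 9.09, 10.43, 11.13 and 10.73 in LEC and 10.12, 10.98, 11.40 and 10.75 in BEC. Cox6b1 was lower in LEC in each of the 4 mice by a small step, with overlapping groups (logFC -0.47 ± 0.45, adjusted p = 0.712). The other kept probe set of Cox6b1 gave the opposite sign, at 0.15.

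Of the heart and muscle forms, Cox7a1 and Cox8b were dim, and none was called. Cox7a1, the form of subunit VIIa in heart and muscle, had the lowest logFC of complex IV. Cox7a1 read 4.72, 4.00, 6.34 and 4.07 in LEC and 5.23, 6.22, 7.98 and 5.88 in BEC (logFC -1.55 ± 0.83, adjusted p = 0.434). Each mouse had less Cox7a1 signal in LEC than in BEC, and 2 of the 4 LEC values were below background. Its general counterpart Cox7a2 stood at 10.30 ± 1.29 in LEC and 9.78 ± 0.68 in BEC (SD, n = 4; logFC 0.52 ± 0.58). The other kept probe set of Cox7a2 gave -0.45. Cox8b, the heart and muscle form of subunit VIII, read 3.48, 7.07, 4.65 and 4.88 in LEC and 1.89, 4.10, 2.70 and 4.30 in BEC (logFC 1.77 ± 0.98, adjusted p = 0.452). LEC was higher in each mouse, but 3 of the 8 values lay below background and the groups overlapped.

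Cox6a2, the heart and muscle form of subunit VIa, stood at 7.07 ± 0.33 in LEC and 6.65 ± 0.83 in BEC (SD, n = 4; logFC 0.42 ± 0.62), and a dimmer probe set of the same gene gave 2.60. Cox6a1, the general form, stood at 11.53 ± 0.72 in LEC and 11.66 ± 0.85 in BEC (SD, n = 4; logFC -0.12 ± 0.44). Cox8a, the general form of subunit VIII, stood at 8.32 ± 1.00 in LEC and 8.70 ± 0.91 in BEC (SD, n = 4; logFC -0.38 ± 0.62), and the testis-enriched Cox8c at 5.34 ± 2.20 in LEC and 5.90 ± 0.93 in BEC (SD, n = 4; logFC -0.55 ± 1.02). Differences between forms of the same subunit were not tested.

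Cox4i1 and Cox4i2 are alternative forms of subunit IV, the second one known from lung and from cells short of oxygen. Cox4i1 read 10.23, 9.85, 11.15 and 10.17 in LEC and 9.79, 9.76, 11.02 and 9.96 in BEC, higher in LEC in 4 of 4 mice by small steps (logFC 0.21 ± 0.41, adjusted p = 0.882). Cox4i2 was dim, at 4.25, 4.17, 5.98 and 5.41 in LEC and 5.98, 4.77, 3.02 and 5.45 in BEC, with 5 of 8 values above background (logFC 0.15 ± 0.86). Ndufa4, counted with complex I by its symbol and now placed in complex IV, stood at 9.51 ± 0.82 in LEC and 10.03 ± 0.49 in BEC (SD, n = 4; logFC -0.52 ± 0.46). Ndufa4l2, its counterpart induced by hypoxia-inducible factors, stood at 4.98 ± 1.06 in LEC and 5.03 ± 0.95 in BEC (SD, n = 4). Its logFC was -0.05 ± 0.82, and it was dim in both cell types, with 7 of 8 values above background. Neither hypoxia-linked form differed detectably between the cell types.

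**Figure D3:**
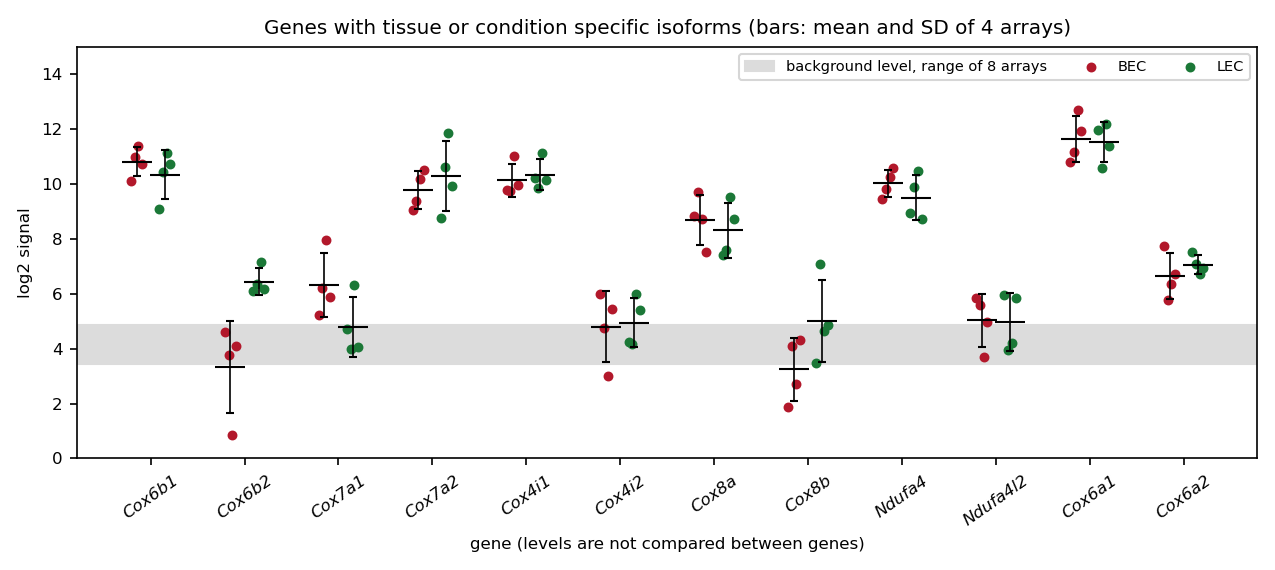
Log2 signal of 12 genes that are alternative forms of the same subunit on each BEC and LEC array (points), with mean and SD of 4 arrays (bars); the grey band is the range of the background level, 3.43 to 4.88. LEC and BEC points separate at Cox6b2 alone.

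Cox7a2l, a relative of subunit VIIa studied for its part in supercomplexes of complexes III and IV, was close to equal. It stood at 10.98 ± 0.66 in LEC and 11.00 ± 0.59 in BEC (SD, n = 4), with an interval of -0.86 to 0.83. Cox5a, a nuclear subunit of the matrix side, was lower in LEC in 4 of 4 mice with overlapping groups (logFC -0.90 ± 0.52, adjusted p = 0.477). Cox7c, a small general subunit, and Cox7b2, a testis-enriched form, were not tested. Both were above background on 0 of 8 arrays, so nothing is read from their values.

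Complex V, the ATP synthase, had 17 tested genes, all above background on all 8 arrays, with a median logFC of 0.10 and means of 9.69 ± 0.70 in LEC and 9.81 ± 0.51 in BEC (SD, n = 4). The sign of this median was not stable: it was below 0 in 13 of the 22 alternatives, ranging from -0.31 to 0.11, with -0.18 at equal array medians and -0.20 after quantile normalization. The median difference within mice 1 to 4 was -0.37, -0.11, -0.13 and -0.26. Atp5a1 and Atp5b encode the alpha and beta subunits of the catalytic head. Atp5a1 read 13.02, 12.88, 13.16 and 13.15 in LEC and 12.93, 12.55, 13.15 and 13.10 in BEC. Its logFC of 0.12 ± 0.19 had the smallest standard error of all 90 genes, and the interval of -0.29 to 0.53 lay well within 2-fold. Atp5b read 9.37, 10.46, 10.53 and 10.15 in LEC and 9.78, 10.87, 10.87 and 10.34 in BEC (logFC -0.33 ± 0.39, adjusted p = 0.775). In each mouse the LEC value was below the BEC value by a small step, with overlap between groups.

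Atp5j, the coupling factor of the peripheral stalk, had the lowest logFC of complex V. Atp5j read 9.17, 9.94, 11.02 and 10.74 in LEC and 10.90, 11.19, 11.31 and 11.51 in BEC (logFC -1.01 ± 0.40, adjusted p = 0.248). LEC was lower in 4 of 4 mice, and the LEC array of mouse 3 lay above the BEC array of mouse 1, so the groups overlapped. Atp5mpl, a small proteolipid of the membrane part, was at the other end (logFC 0.78 ± 0.71), with 7.90, 10.20, 10.11 and 8.61 in LEC and 7.63, 7.93, 10.43 and 7.70 in BEC. The c-ring subunit is encoded by Atp5g1, Atp5g2 and Atp5g3, whose mature proteins are the same and whose targeting sequences differ. Their logFC was 0.48 ± 0.68, 0.14 ± 0.63 and 0.23 ± 0.60, each smaller than its own standard error. The other 10 genes of complex V lay between -0.93 and 0.21.

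The 11 tested assembly factors stood nearest to background and were measured least precisely, with 4 of 11 above background on all 8 arrays and a median standard error of 0.94. Their median logFC was -0.04. Ndufaf8, a complex I assembly factor, had the lowest logFC of all members, with 8.53, 8.43, 8.44 and 4.76 in LEC and 9.53, 8.59, 8.27 and 10.12 in BEC (logFC -1.59 ± 0.81, adjusted p = 0.412). The value of mouse 4 alone set LEC below BEC by this amount, and without it the logFC was -0.66. Sdhaf2, which helps attach the flavin to Sdha, had the highest logFC of the assembly factors, with 7.56, 7.86, 6.92 and 7.12 in LEC and 5.09, 5.37, 7.41 and 7.28 in BEC (logFC 1.08 ± 0.70, adjusted p = 0.541). Ndufaf6 was not tested, with 3 of 8 values above background.

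The larger pattern in these genes lay between arrays of the same cell type. LEC 3 was above the LEC mean at 76 of the 90 genes and BEC 3 above the BEC mean at 74, while LEC 1, BEC 1 and BEC 2 were above their group mean at 20, 28 and 24. The counts for LEC 2, LEC 4 and BEC 4 were 38, 52 and 52. Over all tested genes each array was above its group mean at 48.6% to 54.6%. LEC 1 was the lowest of the 8 arrays at 40 of the 90 (44.4%, against 18.3% of all genes), and the highest was LEC 3 or BEC 3 at 51 (56.7%, against 20.7%). In 3 of the 4 mice the arrays of a mouse often moved alike: both mouse 3 arrays were above their group means at 66 of the 90 (73.3%, against 29.0% of all genes), and both mouse 1 arrays below them at 52 (57.8%, against 24.4%) and both mouse 2 arrays at 40 (44.4%, against 22.8%). For mouse 4 both arrays were above at 26 (28.9%, against 26.2%) and both below at 12 (13.3%, against 26.7%).

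The complexes took part in this pattern to different extents. In complex V, 17 of 17 genes were above the group mean on LEC 3 and 17 of 17 on BEC 3, and in complex III 8 of 8 and 7 of 8. Complex I had 30 and 31 of 35, and complex IV 12 and 10 of 15. The 11 assembly factors shared the low LEC 1, which was the lowest of the 8 arrays at 6 of 11 with a median deviation of -1.70. They were above the mean at 7 of 11 on LEC 3 (median deviation 0.90), but at 5 of 11 on BEC 3 (-0.19), and LEC 2 was the array with the most, at 10. The median deviation of the 90 genes from the group mean was 0.77 on LEC 3 and 0.46 on BEC 3, and -0.65 on LEC 1, on the log2 scale.

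Other measurements of the same arrays are given beside this pattern. LEC 3 and BEC 3 are 2 of the 3 arrays brightest in epithelial markers. Epcam, a defining gene of epithelium, read 5.97, 4.43, 10.71 and 4.05 in LEC and 4.99, 6.48, 11.85 and 11.13 in BEC. BEC 4 was lower in summed epithelial signal than BEC 3 (12.65 against 14.55) and had 52 of 90 members above the mean, against 74. Genes of the cytosolic ribosome showed the same arrays on top, with 40 and 43 of 49 above the group mean on LEC 3 and BEC 3. The 3′ over 5′ differences of control probe sets, a sign of RNA or cDNA length, also varied between arrays. That of Gapdh was highest on LEC 1 at 3.87, followed by BEC 4 at 3.62, and lowest on LEC 4 at 1.14. That of Actb was highest on BEC 1 at 0.25 and lowest on BEC 3 at -0.63, with LEC 1 at -0.29. Hybridisation controls averaged 14.05 on LEC 1 and 13.67 on BEC 1, against 12.64 to 13.24 on the other arrays. Background was also highest on LEC 1 and BEC 1, at 4.88 and 4.52, against 3.43 to 4.32 on the others. The part of epithelial RNA, of RNA quality and of array scaling in the pattern was not tested. With both arrays of mouse 3 left out, limma called 0 members and the median logFC was -0.22. Of all 13259 genes, 169 were then called higher and 210 lower. With LEC 3, BEC 3 and BEC 4 left out, 0 members were called and the median was -0.09. Of all genes, 112 were then called higher and 104 lower. Members with an unadjusted p under 0.05 (limma) numbered 7 and 3. No share over all genes was taken for these 2 counts, so nothing is read from them.

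**Figure D4:**
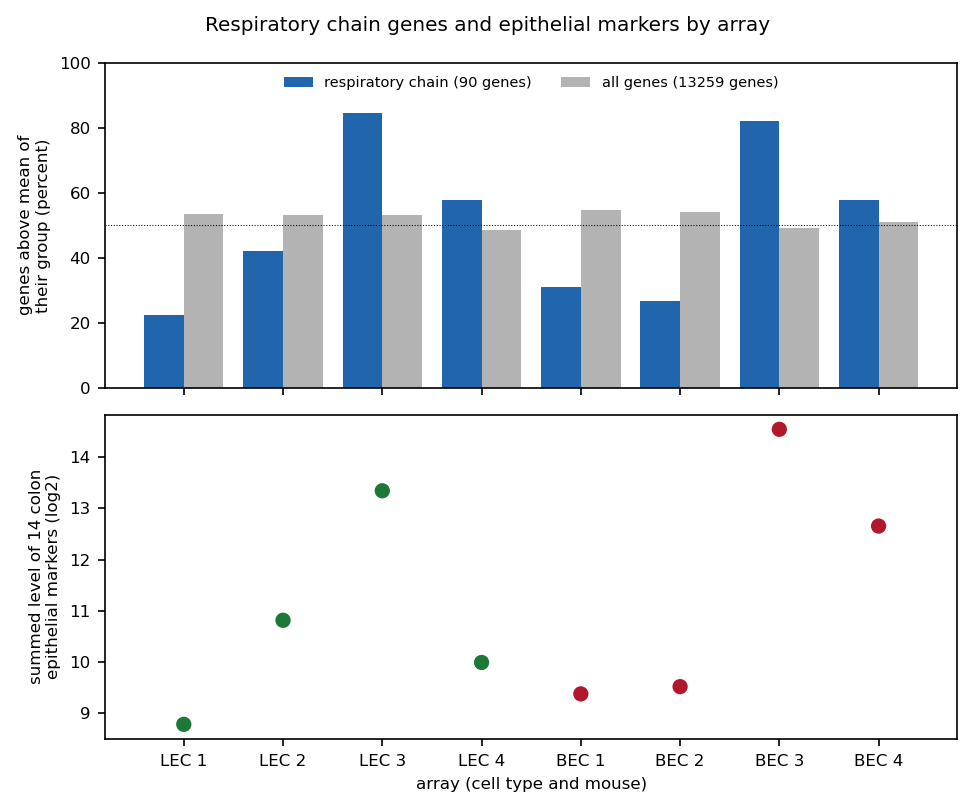
Upper panel: percent of genes above the mean of their own group on each array, for the 90 respiratory chain genes (blue) and all 13259 tested genes (grey), with a dotted line at 50 percent. Lower panel: log2 of the summed signal of 14 colon epithelial markers on each LEC (green) and BEC (red) array. LEC 3 and BEC 3 are highest in both panels, at 84.4 and 82.2 percent of respiratory chain genes.

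Other mitochondrial gene lists, chosen with earlier results known, held no called gene either, by the same limma fit. Of all genes 4.07% were called and 14.4% had an unadjusted p under 0.05. At that share of calls a short list can hold none. Of the citric acid cycle and pyruvate dehydrogenase genes, 0 of 16 were called (1 by an unadjusted p under 0.05), with a median logFC of -0.38. Within mice 1 to 4 their median difference was -0.54, -0.49, -0.41 and -0.50, where that of all genes was 0.13, 0.08, 0.16 and 0.03. Of the electron carriers and subunits that the symbol rule leaves out, such as cytochrome c and c1, 0 of 10 were called (0 unadjusted, median -0.11). Of assembly factors under other names, 0 of 31 were called (1 unadjusted, median -0.03), of outer membrane, import and chaperone genes 0 of 15 (2 unadjusted, median -0.19), and of the mitochondrial ribosome 0 of 76 (2 unadjusted, median 0.14). These medians stand beside 0.08 for all genes. The cytosolic ribosome had 0 of 49 called (3 unadjusted) and a median of 0.25. With the mouse as a replicate block limma called 2 of these 49, where 4.03% of all genes were called. In the mitochondrial lists of this paragraph it called 0 again, with 1 citric acid cycle gene at an unadjusted p under 0.05 (16.1% of all genes).

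Regulators of mitochondrial biogenesis were mostly dim and uncertain, with 0 of 17 called (4.07% of all genes), 0 unadjusted (14.4%) and a median logFC of -0.20. Their median difference within mice 1 to 4 was -0.36, -0.31, -0.33 and -0.44. The block gave 0 called by limma (4.03% of all genes) and 1 by an unadjusted p under 0.05 (16.1%). Nrf1 and Gabpa, whose motif letters are shown with the promoters, had a logFC of -2.08 ± 1.13 and 0.23 ± 0.53 (adjusted p = 0.445 and 0.900). Ppargc1a, a coactivator of both, stood at 4.19 ± 1.27 in LEC and 5.20 ± 1.50 in BEC (SD, n = 4; logFC -1.01 ± 0.96). ND5, a complex I subunit encoded in mitochondrial DNA, was the 1 tested gene of the 13 encoded there. ND5 read 14.39, 13.65, 13.63 and 13.74 in LEC and 13.96, 13.35, 12.92 and 12.08 in BEC, with overlapping groups (logFC 0.77 ± 0.33, adjusted p = 0.283). Among genes of the hypoxia response limma called 1 of 17, which was lower (4.07% of all genes were called), and 6 of 17 (35.3%, against 14.4% of all genes) had an unadjusted p under 0.05, 3 higher and 3 lower. Epas1, which encodes the endothelial hypoxia-inducible factor HIF-2 alpha, was bright in both cell types and 2.66-fold lower in LEC (logFC -1.41 ± 0.24, adjusted p = 0.00326). Epas1 stood at 11.41 ± 0.28 in LEC and 12.83 ± 0.28 in BEC, and every LEC array was below every BEC array.

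Probe sets of the same gene did not always give the same sign. Of the 185 member probe sets 166 passed the filter when each was fitted on its own, 0 were called (3.7% of all 23980 kept probe sets were) and 6 had an unadjusted p under 0.05 (13.6% of all). Of the 50 genes with several kept probe sets, 24 had estimates of both signs, and the median distance between the lowest and highest estimate of a gene was 0.63. For 21 of the 90 chosen probe sets the array's naming marks probes that can match several transcripts, and nuclear subunit genes have many processed pseudogenes, so such signals can include copies.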

How the data were processed

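RNA of 4 LEC and 4 BEC samples was hybridised to 1-colour expression arrays after linear amplification. The deposited table holds log2 values, and MAS5 is named in the submitters' processing notes, with no version in the sources used here. Scaled signals behind the authors' log2 values were inferred from a 2% trimmed mean near 100.04 on every array's linear scale. The values were used as deposited. Genes came from the platform annotation, updated to RefSeq symbols of GRCm38.p6. Per gene, the probe set with the brightest average was kept if it exceeded the array's 40th percentile on 4 or more arrays. Limma 3.58.1 under R 4.3.3 fitted 13259 genes (lmFit, eBayes with trend, cell type as the only term, 6 residual and 7.35 prior degrees of freedom). The script was tested on simulated data. P-values are two-sided, Benjamini-Hochberg adjusted over all genes, and called under 0.05. Differences are LEC minus BEC (logFC) with moderated standard errors. Background is the 95th percentile of 27 Bacillus subtilis control sets per array. The number of arrays limits the precision.

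Replicate numbers are mice. Same-mouse deviations correlated at 0.142, 0.0776, 0.181 and 0.0510. No different-mouse value was taken, so these correlations do not show the pairing. P-values measure the spread between mice and of the assay. Members, lists and alternatives were chosen with earlier results of these data known. Named were called members, the highest and lowest logFC of each complex, preset isoforms and core subunits, and called list genes. Other names were chosen after their values were seen. Alternatives covered pairing, scaling, filter, background, probe set choice, variance model and left-out arrays; 2 left-out sets were chosen after seeing the data.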

Additional observations from a re-analysis of the deposited data

Results flagged for a closer look

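In 5 of the 80 groups of 4 arrays examined (34 named genes and 6 group means in each cell type), 1 array stood apart from the other 3 by Dixon's gap test at the 95% level, and chance alone gives about 1 in 20. Uqcrb read 12.19 on BEC 3, against 11.76 to 11.81 on the other BEC arrays. Cox4i1 read 11.02 on BEC 3, against 9.76 to 9.96. Atp5mpl read 10.43 on BEC 3, against 7.63 to 7.93. These 3 high values were all on the BEC array that was brightest in epithelial markers. Atp5g2 read 6.68 on BEC 2, against 7.19 to 7.28. Ndufaf8 read 4.76 on LEC 4, against 8.43 to 8.53 on the other LEC arrays.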

How the results depend on the processing

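The count of called members was 0 higher and 0 lower in 21 of 22 alternatives. With values raised to background it was 1 higher, Cox6b2, and 0 lower, where 4.77% of all genes were called. Median logFC of the members ran from -0.48 (equal hybridisation controls, where the median of all genes was -0.31) to 0.19 (without LEC 1). With 1 array left out it ran from -0.26 to 0.19. All these values lie within 1 SD of the array medians (0.57) of the -0.10 reported, on both sides of 0, so no direction is given for the group. Of the 34 named genes, 15 changed sign under some alternative, in 60 of 747 values, none of them called, and 1 gene gained a call.

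With the mouse as a replicate block, which the design pairs, 0 members were called, and of all genes 236 were higher and 298 lower, so the block changed no call of a member. Of all genes, 123 were higher with equal hybridisation controls (280 lower), and 162 higher and 336 lower with equal array medians, where the median of all genes was -0.20. With the 3 arrays brightest in epithelial markers left out, 112 were higher and 104 lower. With 1 array left out, 156 to 227 were higher and 180 to 329 lower, with 180 without BEC 2 and 200 without BEC 4. Signal over background limits 17 of the 90 genes, which were not above background on all arrays. The cause of these changes was not tested.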

Other observations

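Other mitochondrial and housekeeping lists differed in how far they followed the respiratory chain genes across arrays. On LEC 3, 9 of 10 electron carrier genes, 14 of 15 outer membrane, import and chaperone genes, 12 of 16 citric acid cycle genes and 56 of 76 mitochondrial ribosome genes were above the LEC mean. On BEC 3 the counts were 8 of 10, 13 of 15, 7 of 16 and 47 of 76. Assembly factors outside the symbol rule stood at 17 of 31 on both arrays, near the 53.1% and 49.2% of all genes. ND5 did not follow: it was highest on LEC 1 (14.39) and lowest on BEC 4 (12.08). LEC 1 was the lowest of the 8 arrays at 7 of 16 citric acid cycle genes and 21 of 76 mitochondrial ribosome genes, and at 18.3% of all genes.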
